A study of Mus musculus with 18 samples.

Results

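Gastrulation turns the epiblast into germ layers: cells leave it through the primitive streak, and those that become mesoderm switch on transcription factors in an ordered sequence. Eomes and Mixl1 act in the streak, Gsc marks the organizer and anterior mesendoderm, Mesp1 the earliest cardiac and head mesoderm, Tbx6 the paraxial mesoderm that forms the somites, Foxf1 the lateral plate and visceral mesoderm, and Nkx2-5 the heart field. The receptors Pdgfra, which binds platelet-derived growth factors, and Kdr (Flk1), which binds vascular endothelial growth factor, are widely used as surface markers when ES cells are driven towards mesoderm, although Pdgfra is also made by primitive endoderm and fibroblasts and Kdr by endothelium. The set described here is these 8 genes: Pdgfra, Kdr, Mesp1, Mixl1, Tbx6, Gsc, Foxf1 and Nkx2-5. They were taken by symbol from the array's annotation, and all 8 were among the 19938 genes tested. Foxf1 alone had 2 probe sets, of which the brighter was used.

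Total RNA of mouse cultures was hybridised to 18 Affymetrix Mouse Gene 1.0 ST arrays, 300 ng for each, in 6 groups of 3 biological replicates. The 129SV background gave undifferentiated ES cells (ES 129SV), undifferentiated adult stem cells (adult 129SV) and both after differentiation (differentiated ES and differentiated adult). From the Stra8-EGFP/Rosa26 background (shortened to Stra8) came only undifferentiated ES and adult cells (ES Stra8, adult Stra8); Stra8 is a gene of germ cells about to enter meiosis. The title of the series identifies the adult cells as multipotent germline stem cells and sets their transcriptome beside that of ES cells. The protocol and duration of differentiation, the feeder layer if any, the number of lines and the ages of the donors are not given in the sources used here, so p-values measure the spread between samples called biological replicates. Values are log2 signals, on which 1 unit is a 2-fold difference, and levels are compared only within a gene. As a check of the labels, the pluripotency factor Pou5f1 had a mean of 12.60 in ES 129SV and 12.56 in adult 129SV cells against 9.46 and 10.09 after differentiation. The mean of 16 pluripotency genes was at least 10.79 on every undifferentiated array and at most 9.58 on every differentiated one. Within groups, each array's mean correlation with the others, across genes, was 0.992 or higher, and replicate 3 of differentiated ES cells was lowest.

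The promoters of Pdgfra and Kdr are shown because these receptors had the widest range of levels, that of Tbx6 because it rose on differentiation of both cell types, and that of Mesp1 because it holds letters recognised by factors of the streak. Each window (GRCm38.p6) runs from 250 bases before to 50 bases after the start site listed for that promoter. It is printed 5′ to 3′ on the strand of the gene. The windows lie at chr5:75152001-75152300 (plus strand) for Pdgfra, chr5:75978406-75978705 (minus) for Kdr, chr7:126781233-126781532 (plus) for Tbx6 and chr7:79793541-79793840 (minus) for Mesp1. For Tbx6 and Mesp1 the listed site is the start of the RefSeq gene. For Pdgfra and Kdr the window lies inside the RefSeq gene, which begins at 75151322 for Pdgfra and at 75979072 (minus strand) for Kdr. Capitals mark a match to any of the motifs searched.
Pdgfra: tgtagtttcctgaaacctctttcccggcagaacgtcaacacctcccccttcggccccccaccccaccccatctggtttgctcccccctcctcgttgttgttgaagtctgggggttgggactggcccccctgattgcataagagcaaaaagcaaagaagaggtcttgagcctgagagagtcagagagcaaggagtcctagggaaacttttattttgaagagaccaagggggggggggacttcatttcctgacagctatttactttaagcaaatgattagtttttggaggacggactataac
Kdr: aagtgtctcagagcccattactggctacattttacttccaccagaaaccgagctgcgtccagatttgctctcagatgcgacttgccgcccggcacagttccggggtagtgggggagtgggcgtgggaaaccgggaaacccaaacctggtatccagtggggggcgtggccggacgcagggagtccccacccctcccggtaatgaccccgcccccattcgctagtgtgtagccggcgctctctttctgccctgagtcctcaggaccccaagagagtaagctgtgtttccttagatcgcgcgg
Tbx6: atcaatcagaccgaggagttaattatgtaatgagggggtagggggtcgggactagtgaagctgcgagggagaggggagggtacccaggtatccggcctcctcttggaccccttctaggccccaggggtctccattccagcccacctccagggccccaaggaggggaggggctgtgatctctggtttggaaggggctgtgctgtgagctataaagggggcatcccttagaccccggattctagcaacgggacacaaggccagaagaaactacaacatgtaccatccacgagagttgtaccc
Mesp1: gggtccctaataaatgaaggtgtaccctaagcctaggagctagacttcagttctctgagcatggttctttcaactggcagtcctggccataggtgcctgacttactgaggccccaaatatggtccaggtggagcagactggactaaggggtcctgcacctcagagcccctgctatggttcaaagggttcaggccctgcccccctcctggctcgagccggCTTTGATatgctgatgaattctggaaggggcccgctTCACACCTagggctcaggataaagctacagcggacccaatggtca

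The 6 motifs searched on both strands were the T-box site AGGTGTGA, the GATA site AGATAAG, the bicoid-type homeodomain site TAATCC, the TCF/LEF site ATCAAAG, the SMAD element GTCTAGAC and the NKX2 site CCACTTGA. Matches to different motifs did not overlap in these windows. Mesp1 held the T-box letters, read as TCACACCT, 6 bases into the transcript, and the TCF/LEF letters, read as CTTTGAT, from base -31. Over all 32851 promoters of the table, 1.28% held the T-box letters and 3.73% the TCF/LEF letters. None of the 6 motifs was found in the windows of Pdgfra, Kdr, Tbx6, Gsc or Nkx2-5. The windows of Pdgfra, Kdr and Nkx2-5 lie inside the RefSeq gene, and the stretch before the start of that gene was not searched. The shares over all promoters were 3.04% for GATA, 7.06% for the bicoid-type site, 0.213% for SMAD and 0.70% for NKX2. Of the 8 genes 6 had a promoter in the table; Mixl1 and Foxf1 did not. CpG dinucleotides numbered 25 in the window of Gsc, 19 in Kdr, 9 in Nkx2-5, 7 in Tbx6, 5 in Pdgfra and 4 in Mesp1, beside quartiles of 3, 7 and 20 over all promoters.

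The genes fell into a group of 4 that varied across the cultures and a group of 4 that hardly did. The means of the 6 groups spanned 3.19 log2 units for Pdgfra, 2.47 for Kdr, 1.36 for Foxf1 and 1.18 for Tbx6. They spanned 0.40 for Mixl1, 0.35 for Mesp1, 0.35 for Nkx2-5 and 0.32 for Gsc. Over all genes tested the median span was 0.62, and 27.6% of genes spanned at least 1. A filter that leaves out genes with a mean under 7.29, the median of all values, in every group passed 6 of the 8 and left out Mesp1 and Mixl1. Kdr and Tbx6 passed only through their differentiated groups. Their means in undifferentiated groups were at most 7.15 and 7.21, under that limit. Without detection calls, a low signal cannot be told from background.

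**Figure D1:**
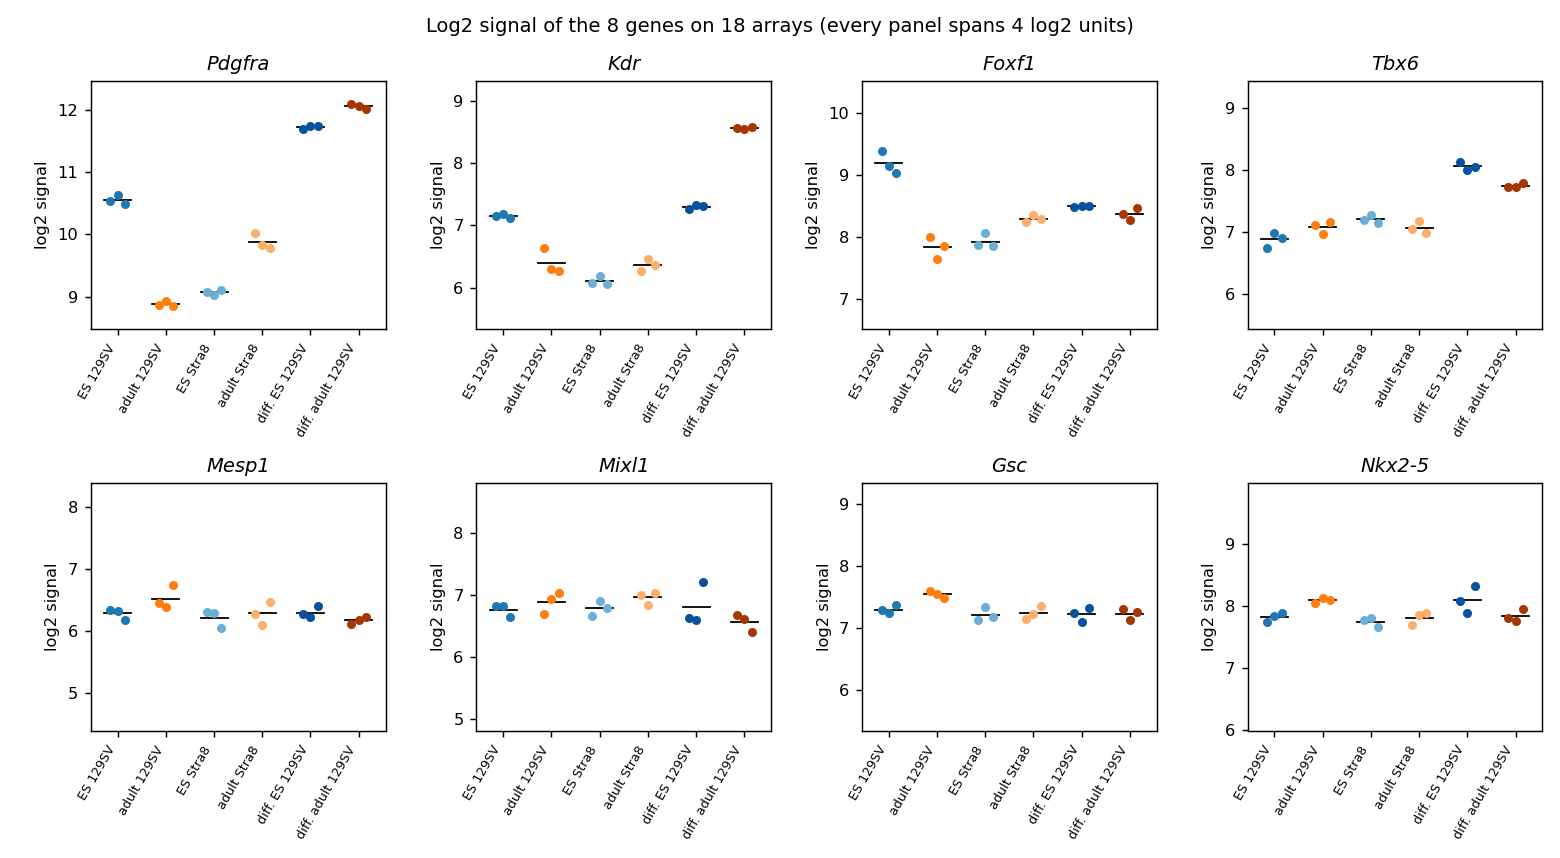
Log2 signal (vertical axis) of each of the 8 genes on every array (points), by group (horizontal axis), with the group mean as a bar; all panels cover an equal range of log2 units. Pdgfra and Kdr are highest in differentiated adult cells, Foxf1 in ES 129SV cells and Tbx6 in differentiated ES cells, while Mesp1, Mixl1, Gsc and Nkx2-5 stay within 0.40 between group means.

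Pdgfra, the receptor for PDGF-A and PDGF-C, was read at 10.53, 10.63 and 10.49 in ES 129SV and at 8.87, 8.92 and 8.85 in adult 129SV cells. The values were 9.08, 9.02 and 9.10 in ES Stra8 and 10.02, 9.83 and 9.79 in adult Stra8 cells. Differentiated ES cells gave 11.69, 11.75 and 11.74, and differentiated adult cells 12.10, 12.07 and 12.02. The 6 groups did not overlap at any step of this order, which ran from differentiated adult down through differentiated ES, ES 129SV, adult Stra8 and ES Stra8 to adult 129SV. Adult 129SV cells thus had the lowest level before differentiation and the highest after it. Pdgfra rose on differentiation by 1.18 ± 0.06 (SE) from ES cells (adjusted p = 3.95e-11) and by 3.19 ± 0.06 from adult cells (2.92e-16), which is 9.11-fold. The rise was larger in adult cells by 2.01 ± 0.09 (adjusted p = 2.27e-11).

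Kdr, the main signalling receptor for VEGF-A, was read at 7.15, 7.18 and 7.12 in ES 129SV cells and at 6.63, 6.29 and 6.26 in adult 129SV cells. In the Stra8 background the values were 6.08, 6.18 and 6.06 in ES and 6.27, 6.46 and 6.36 in adult cells. Differentiated ES cells gave 7.26, 7.33 and 7.31, and differentiated adult cells 8.57, 8.56 and 8.59. Differentiated adult cells stood well above every other array, and the order went on with differentiated ES and ES 129SV cells. Adult 129SV and adult Stra8 cells overlapped, and ES Stra8 cells were lowest. Kdr rose by 2.18 ± 0.08 on differentiation of adult cells (adjusted p = 6.44e-13), or 4.53-fold. Its change of 0.15 ± 0.08 in ES cells did not pass (adjusted p = 0.124), with a 95% interval from -0.02 to 0.32. The response was larger in adult cells by 2.03 ± 0.11 (adjusted p = 6.47e-10).

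Foxf1, a forkhead factor of lateral plate mesoderm and of the mesenchyme around the gut and lung, was read at 9.38, 9.15 and 9.03 in ES 129SV and at 8.0, 7.64 and 7.84 in adult 129SV cells. ES Stra8 cells gave 7.86, 8.06 and 7.85, and adult Stra8 cells 8.23, 8.35 and 8.28. After differentiation the values were 8.48, 8.49 and 8.50 from ES and 8.37, 8.27 and 8.47 from adult cells. ES 129SV cells were highest and did not overlap any other group. Differentiated adult overlapped adult Stra8 cells, and ES Stra8 overlapped adult 129SV cells at the bottom. Differentiation moved Foxf1 in opposite directions: it fell by 0.69 in ES cells (adjusted p = 9.12e-06) and rose by 0.54 in adult cells (0.000118). The responses differed by 1.23 ± 0.14 (adjusted p = 1.76e-06). The second, dimmer probe set of Foxf1 gave -0.50 in ES cells (adjusted p = 0.000408 over all probe sets) and 0.20 in adult cells, which did not pass (0.0930).

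Tbx6, a T-box factor needed for paraxial mesoderm, was read at 6.74, 6.99 and 6.91 in ES 129SV and at 7.11, 6.96 and 7.16 in adult 129SV cells. Stra8 cells gave 7.20, 7.27 and 7.15 (ES) and 7.05, 7.18 and 6.98 (adult). Differentiated ES cells gave 8.12, 8.01 and 8.04, and differentiated adult cells 7.73, 7.73 and 7.78. Both differentiated groups lay above all undifferentiated arrays and apart from each other, whereas each undifferentiated group overlapped the next. Tbx6 rose by 1.18 ± 0.07 from ES cells (adjusted p = 4.03e-10) and by 0.67 ± 0.07 from adult cells (5.08e-07). The rise was smaller in adult cells by 0.51 ± 0.10 (adjusted p = 0.000723).

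The other 4 genes are transcription factors of the streak, of its early descendants and, for Nkx2-5, of the heart field. Mesp1 ranged over all 18 arrays from 6.04 to 6.73, with each group overlapping the next in order. Mixl1, a homeobox factor of the streak, ranged from 6.41 to 7.22, again with every neighbour overlapping, and its highest value was replicate 3 of differentiated ES cells. Gsc, the homeobox factor goosecoid, ranged from 7.10 to 7.60, and adult 129SV cells (7.60, 7.56 and 7.48) lay above all other arrays. Nkx2-5, a homeobox factor of the heart, ranged from 7.66 to 8.32. Over the 7 comparisons of group pairs, 9 of the 28 changes of these genes passed, none beyond -0.35 or 0.28, where single comparisons called from 28.3% to 59.7% of all genes. The 95% intervals of all 28 lay between -0.62 and 0.47, so none reaches a 2-fold change in either direction.

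On differentiation of adult 129SV cells Mesp1 fell by 0.35 (adjusted p = 0.00762), Gsc by 0.31 (0.00239) and Nkx2-5 by 0.25 (0.0238). The change of Mixl1 was -0.32 ± 0.14 (0.0550), which passed when arrays were centred on their median (-0.42, 0.0132) or quantile normalised (-0.38, 0.0255). It also passed with a trended and robust variance (0.0382), with only the compared arrays (0.0325) and without replicate 1 of adult 129SV (-0.42, 0.0281). In ES cells Nkx2-5 rose by 0.28 (0.0158), a call lost when arrays were centred (0.15, 0.173) or quantile normalised (0.19, 0.127). That call was also lost with only the compared arrays (0.0776) and without replicate 3 of differentiated ES (0.17, 0.0964) or replicate 1 of ES 129SV (0.24, 0.0676). Mesp1 (0.01 ± 0.10), Mixl1 (0.04 ± 0.14) and Gsc (-0.08 ± 0.08) did not pass there, although Gsc did with arrays centred (-0.20, 0.0329) or quantile normalised (-0.21, 0.0279). The call of Mesp1 in adult cells was lost without replicate 3 of adult 129SV (-0.25, 0.0523). That of Nkx2-5 was lost without replicate 2 of adult 129SV (-0.24, 0.0685) or replicates 1 (-0.24, 0.0634) or 2 (-0.21, 0.0923) of differentiated adult cells, and quantile normalisation moved it to -0.39, still called.

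On differentiation of ES cells 4 of the 8 genes were called (55.2% of all genes), 3 higher (27.9%) and 1 lower (27.3%). In adult cells 7 were called (59.7%), 4 higher (27.5%) and 3 lower (32.2%). A change of at least 2-fold was seen for 2 of 8 in each, Pdgfra and Tbx6 from ES cells (11.6% of all genes) and Pdgfra and Kdr from adult cells (11.9%). The median change of the 8 was 0.10 in ES and 0.14 in adult cells, against 0.05 and -0.08 over all genes. The response differed between origins for 5 of 8 (45.7%), with 3 larger in adult cells (24.2%) and 2 smaller (21.5%), and by at least 2-fold for 3 (6.76%). Those last 3 were Pdgfra, Kdr and Foxf1. The comparisons draw on the same 6 groups, so several share arrays, and a count near its background share is not read as a feature of these genes.

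**Figure D2:**
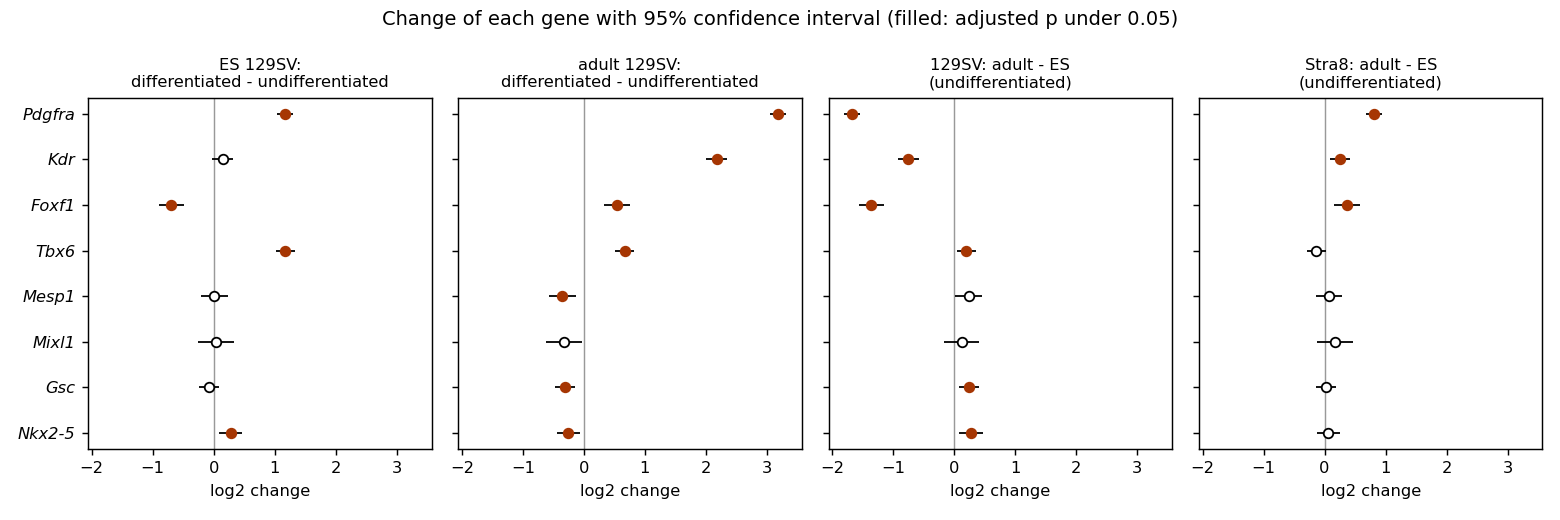
Log2 change of each gene (points) with its 95% confidence interval (lines) in 4 comparisons: differentiated minus undifferentiated for ES and adult 129SV cells, and adult minus ES for undifferentiated cells of both backgrounds. Filled points passed at an adjusted p under 0.05. Pdgfra, Kdr and Foxf1 are negative in the 129SV and positive in the Stra8 comparison of adult with ES cells.

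In undifferentiated cells Pdgfra, Kdr and Foxf1 differed between adult and ES cells in opposite directions in the 129SV and Stra8 backgrounds. In 129SV, adult cells were lower by -1.67 ± 0.06 for Pdgfra (adjusted p = 1.89e-12), -1.36 ± 0.10 for Foxf1 (6.72e-09) and -0.75 ± 0.08 for Kdr (7.98e-07). In Stra8, adult cells were higher by 0.81 ± 0.06 for Pdgfra (6.96e-08), 0.37 ± 0.10 for Foxf1 (0.00847) and 0.25 ± 0.08 for Kdr (0.0259). For each of these changes the 3 arrays of one group lay on one side of the 3 of the other. The effect of origin differed between backgrounds by 2.49 ± 0.09 for Pdgfra (adjusted p = 1.36e-12), 1.73 ± 0.14 for Foxf1 (2.60e-08) and 1.01 ± 0.11 for Kdr (1.67e-06). For Tbx6 it differed by -0.33 ± 0.10 (0.0147), from 0.20 in 129SV (adjusted p = 0.0361) to -0.14 in Stra8 (0.200). Gsc (0.24, 0.0166) and Nkx2-5 (0.27, 0.0209) were higher in adult 129SV cells, and neither passed in Stra8 (0.03 and 0.06). The second probe set of Foxf1 also gave opposite directions, -0.80 and 0.31 (adjusted p = 0.0268).

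In 129SV, adult and ES cells differed in 6 of the 8 genes (46.1% of all genes), 3 higher in adult cells (23.0%) and 3 lower (23.1%), with 2 at least 2-fold (3.94%). In Stra8 it was 3 of 8 (28.3%), all higher in adult cells (13.2%; 15.1% of all genes were lower), and none at least 2-fold (0.752%). The effect of origin differed between backgrounds for 4 of 8 (43.1%), 3 of them towards higher in Stra8 (21.3%) and 1 towards lower (21.8%), with 3 at least 2-fold (8.62%). Kdr in Stra8 no longer passed when ES replicate 1 (0.24, adjusted p = 0.0837), ES replicate 3 (0.23, 0.0907), adult replicate 2 (0.20, 0.124) or adult replicate 3 (0.26, 0.0627) was left out. That of Tbx6 in 129SV was lost under most alternatives, among them centred (0.16, 0.104) and quantile normalised arrays (0.15, 0.126), and after removal of ES replicate 1 (0.13, 0.197), ES replicate 3 (0.21, 0.0551), adult replicate 1 (0.18, 0.0972) or adult replicate 3 (0.16, 0.135). Gsc lost its call without ES replicate 2 (0.21, 0.0653) or adult replicate 1 (0.22, 0.0592), and Nkx2-5 without ES replicate 1 (0.23, 0.0847) or adult replicate 2 (0.26, 0.0629).

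The backgrounds were also compared within each origin. ES Stra8 cells were lower than ES 129SV cells by -1.49 for Pdgfra (adjusted p = 6.88e-12), -1.26 for Foxf1 (1.53e-08) and -1.04 for Kdr (1.78e-08), and higher by 0.33 for Tbx6 (0.00154). These were 4 of 8 genes (41.4% of all genes), 1 higher (21.3%) and 3 lower (20%), the 3 lower ones at least 2-fold (4.54%). Adult Stra8 cells were higher than adult 129SV cells by 1.00 for Pdgfra (1.03e-09) and 0.46 for Foxf1 (0.000700), and lower by -0.29 for Gsc (0.00442) and -0.28 for Nkx2-5 (0.0167). These were again 4 of 8 (51.0%), 2 higher (24.2%) and 2 lower (26.8%), none reaching 2-fold (4.89%); the change of Pdgfra fell just short of it. The second probe set of Foxf1 did not pass here (0.23, 0.0637). The change of Kdr between adult backgrounds was -0.03 ± 0.08 (0.754; 95% interval -0.21 to 0.14). Nkx2-5 lost its call without adult 129SV replicate 2 (-0.26, 0.0524) or adult Stra8 replicate 1 (-0.22, 0.0871). Mesp1 did not pass between adult backgrounds (-0.24, 0.0654), but did in 4 of 13 alternatives.

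After differentiation adult-derived cells had more Kdr (1.27 ± 0.08, adjusted p = 6.53e-09) and Pdgfra (0.34 ± 0.06, 0.000379) than ES-derived cells, and less Tbx6 (-0.31 ± 0.07, 0.00327) and Nkx2-5 (-0.26 ± 0.09, 0.0396). These were 4 of 8 genes (32.2% of all genes), 2 higher (19.4%) and 2 lower (12.8%), and Kdr alone was at least 2-fold (1.27%). Foxf1 (-0.12 ± 0.10), Mesp1 (-0.13 ± 0.10), Mixl1 (-0.25 ± 0.14) and Gsc (0.01 ± 0.08) did not pass. The value of Mixl1 became -0.045 without replicate 3 of differentiated ES cells, its highest array, and -0.046 with array weights. Replicates with the same number deviated together in these 2 groups, and with the number as a block in a fit of the 6 arrays alone Nkx2-5 was no longer called (adjusted p = 0.0706). It was also lost in that fit without the block (0.192) and without differentiated ES replicate 1 (-0.27, 0.0656) or 3 (-0.15, 0.197) or differentiated adult replicate 1 (-0.25, 0.0991) or 2 (-0.22, 0.141).

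Markers of other cells moved with several of these differences. The shares of all genes called in each comparison, given above, stand beside the list counts here and below. In bulk RNA such as this, fewer cells of a type and less RNA per cell cannot be told apart. The mean log2 signal of 19 measured fibroblast genes (of 20 listed, such as Prrx1, Postn and the collagens) was 10.62 to 10.66 in ES 129SV, 9.76 to 9.81 in adult 129SV, 9.44 to 9.50 in ES Stra8 and 10.25 to 10.30 in adult Stra8 cells. Beside the lower Pdgfra, Kdr and Foxf1 of adult 129SV cells, 14 of the 19 fibroblast genes fell and 1 rose. Beside their higher level in adult Stra8 cells, 19 of 19 rose. ES Stra8 cells, low in all 3 genes, had 18 of 19 lower than ES 129SV cells. Adult Stra8 against adult 129SV cells had 10 higher and 4 lower, where Pdgfra and Foxf1 were higher and Kdr changed by -0.03. The fibroblast mean was higher in adult 129SV than in ES Stra8 cells, whereas Pdgfra was lower (8.88 against 9.07). In differentiated cells, where adult-derived cells had more Kdr and Pdgfra, 14 were higher and 1 lower. Endoderm genes, described next, fell in 11 of 17 and rose in none in adult against ES 129SV cells, and rose in 13 and fell in none in Stra8. Of 16 pluripotency genes 10 were higher and 2 lower in differentiated adult than in differentiated ES cells (means of the list 9.55 and 9.14). In adult against ES cells 11 were lower and 1 higher in Stra8, and 5 were lower and 1 higher in 129SV. The part of these marker genes in the differences of Pdgfra, Kdr and Foxf1 was not tested.

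After differentiation the fibroblast list and Pdgfra lay apart. The fibroblast mean was 8.59 to 8.68 in differentiated ES and 9.24 to 9.28 in differentiated adult cells, below every undifferentiated array, while Pdgfra was above every one. Of the 19 genes 16 fell and 2 rose in ES cells (median -1.47), and 13 fell and 6 rose in adult cells (-0.62). Prrx1, a mesenchymal homeobox gene, fell by 5.29 and Thy1, a surface antigen of fibroblasts, by 3.89 in the ES comparison. Both were picked after their values were seen. By at least 2-fold, 14 fibroblast genes fell and 0 rose in ES cells, and 5 fell and 3 rose in adult cells. The mean of 17 measured genes of primitive and extraembryonic endoderm (of 18 listed) went from 8.46 to 8.49 in ES 129SV to 10.43 to 10.49 in differentiated ES cells, and from 8.01 to 8.08 in adult 129SV to 10.53 to 10.55 in differentiated adult cells. Of these genes 16 of 17 rose in ES and 14 of 17 in adult cells, with medians of 1.99 and 3.27. Gata4 (3.32 in ES and 4.40 in adult cells) and Gata6 (3.12 and 4.28), GATA factors of that lineage, were among them. Their part in the rise of Pdgfra and Kdr was not tested.

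**Figure D3:**
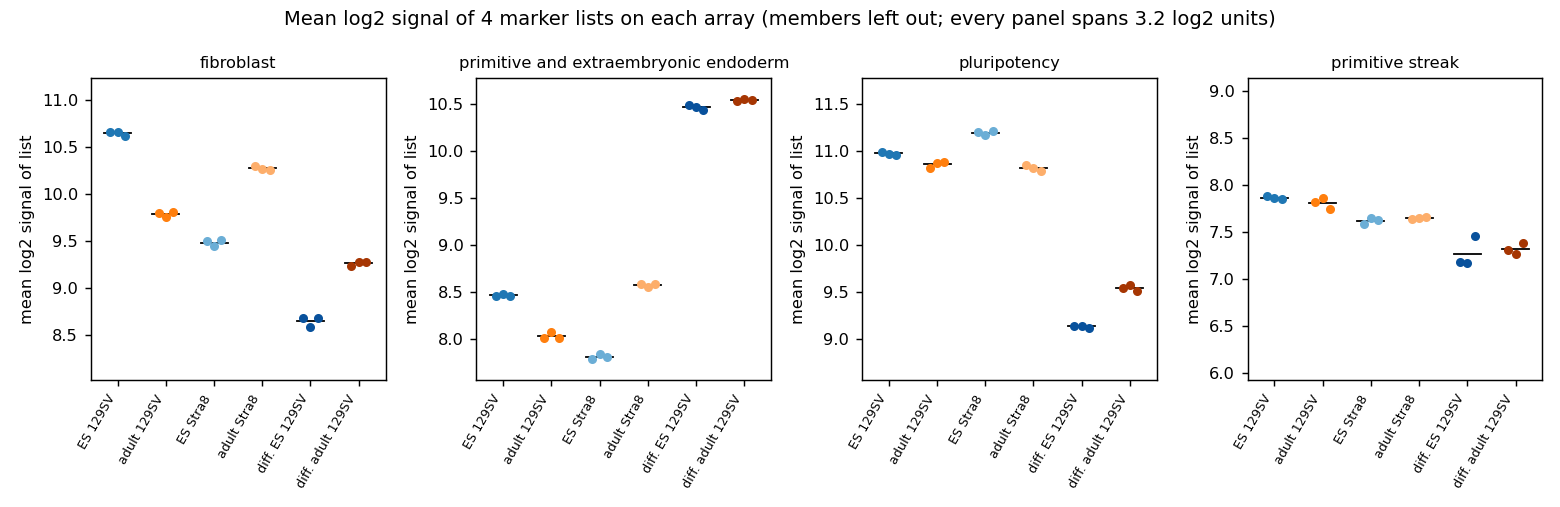
Mean log2 signal (vertical axis) of the measured genes of 4 lists, fibroblast, primitive and extraembryonic endoderm, pluripotency and primitive streak, on each array (points) by group (horizontal axis), with group means as bars. The fibroblast mean is highest in ES 129SV cells (10.62 to 10.66), and the endoderm mean is 10.43 or more in the differentiated groups and at most 8.58 in the others.

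Other genes of gastrulation were read from lists of each stage, with the 8 genes left out. Over all genes 27.9% rose and 27.3% fell from ES cells, and 27.5% and 32.2% from adult cells. A count near these shares is not read as a feature of a list. In the streak list, 3 of 16 genes rose and 5 fell from ES cells, and 1 rose and 7 fell from adult cells, with medians of -0.02 and -0.22 beside 0.05 and -0.08 over all genes (2 and 7, and 1 and 11, with arrays centred). Without replicate 3 of differentiated ES cells the streak genes gave 3 higher and 7 lower in ES cells, with a median of -0.19. The Nodal co-receptor Tdgf1 fell by 4.19 and by 2.58, Fgf4 by 2.46 and 2.29, and Nodal, the ligand that patterns the streak, by 2.28 and 1.42; Tdgf1 and Fgf4 are also pluripotency genes. Eomes, a T-box factor of the streak, fell by 1.31 and 0.51. Wnt3 (0.49), Cdx2 (0.40) and Hoxb1 (0.35) rose from ES cells, and Snai1, a repressor of epithelial genes, rose by 1.48 from adult cells. The gene T (brachyury), also on the list, was not analysed here.

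Organizer genes rose in 5 of 13 and fell in 2 from ES cells, and rose in 5 and fell in 5 from adult cells (medians 0.13 and -0.19). The median in ES cells became -0.04 without replicate 3 of differentiated ES cells. The endoderm factors Sox17 (2.32 and 3.27) and Foxa2 (1.92 and 1.97) and the BMP antagonist Nog (1.00 and 1.96) rose, and Otx2, a head homeobox gene (-3.20 and -1.67), and the Nodal inhibitor Lefty2 (-1.63 and -1.55) fell, as did Hhex in adult cells (-0.72). Paraxial genes rose in 4 and fell in 6 of 17 from ES cells, and rose in 3 and fell in 11 from adult cells (medians -0.09 and -0.35). Tcf15, a somite factor (-1.48 and -2.25), and the Notch ligand Dll3 (-0.78 and -1.58) fell in both, with Aldh1a2 (-0.55) in ES and Foxc2 (-0.58) in adult cells. Pax3 (0.81 and 0.93) and Foxc1 (0.67 and 0.39) rose in both, Msgn1, a factor of presomitic mesoderm, rose in ES cells (0.29), and the Wnt enhancer Rspo3 in adult cells (1.05). With arrays centred the paraxial counts in ES cells were 2 higher and 9 lower, and without replicate 3 of differentiated ES cells 3 higher and 10 lower (median -0.23).

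Lateral plate genes rose in 10 and fell in 3 of 16 from ES cells, and rose in 7 and fell in 2 from adult cells (medians 0.42 and 0.09), a balance that became 5 and 5 in adult cells with arrays centred or quantile normalised. The median in ES cells was 0.27 without replicate 3 of differentiated ES cells. Bmp2 (2.52 and 4.05), Wnt2b (1.26 and 2.12) and Msx2, a target of BMP signals (1.69 and 1.11), rose, while Bmp4 (-1.37 and -0.87), Wnt2 (-1.48 and -0.65) and, in ES cells, Tbx3 (-0.60) fell. Hand1, a factor of lateral and extraembryonic mesoderm, rose by 0.42 from ES cells and changed by -0.03 ± 0.09 in adult cells (adjusted p = 0.775). Heart genes rose in 10 and fell in 3 of 18 from ES cells, and rose in 9 and fell in 3 from adult cells (7 and 6 with arrays centred), with medians of 0.42 and 0.17. Beside Gata4, the calcium channel Ryr2 rose by 2.10 and 2.72, the troponin Tnnt2 by 2.52 in ES cells and the atrial light chain Myl7 by 1.66 in adult cells. Tbx5 (-0.45) and Actc1 (-0.23) fell in ES, Myl2 (-0.46) and Myh6 (-0.40) in adult cells, and Smyd1 in both (-0.39 and -0.45).

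**Figure D4:**
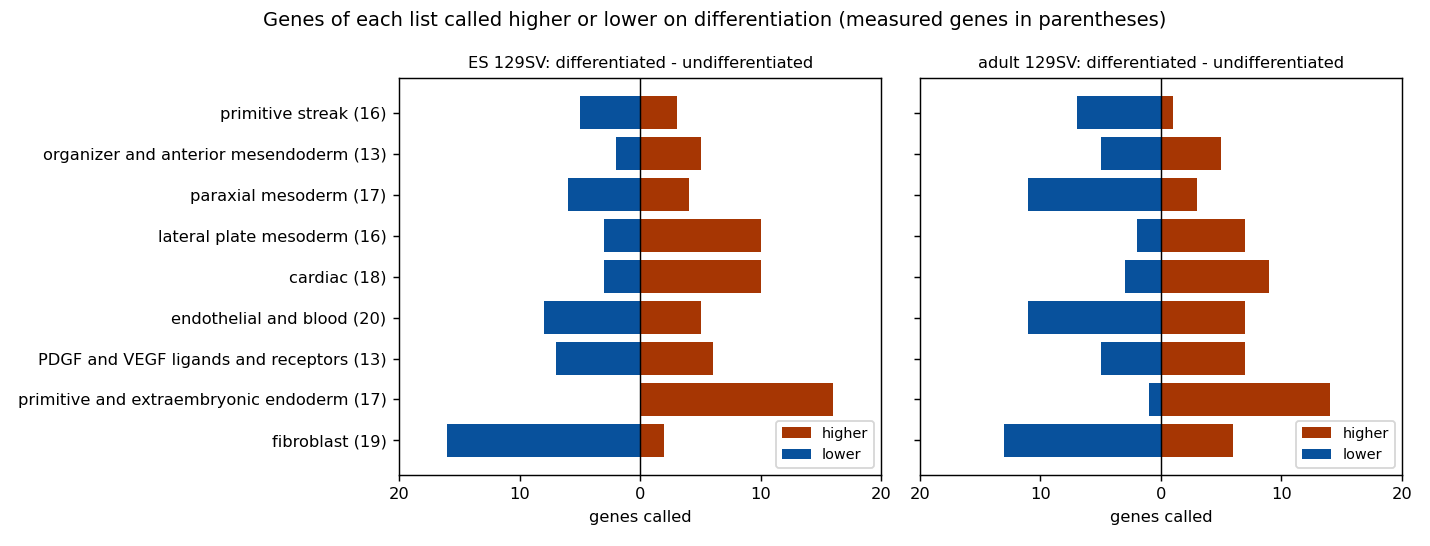
Number of genes called higher (right of 0) or lower (left of 0) on differentiation, horizontal axis, for 9 gene lists (rows, measured genes in parentheses), in ES and in adult 129SV cells. The endoderm list has 16 and 14 genes higher. The streak list has 3 higher and 5 lower of 16 in ES cells, near the shares over all genes, and 1 higher and 7 lower in adult cells. Over all genes 27.9% were higher and 27.3% lower in ES cells, and 27.5% and 32.2% in adult cells.

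Ligands and partner receptors of the PDGF and VEGF families formed a list of their own, in which Kit and its ligand Kitl were also counted. On differentiation 6 of its 13 measured genes rose and 7 fell from ES cells, and 7 rose and 5 fell from adult cells (medians -0.21 and 0.35). The response differed between origins for 12, being higher in adult cells for 10 and lower for 2 (median 0.69). Between undifferentiated adult and ES cells 9 were lower and 3 higher in 129SV (median -0.75), and 6 were higher and 1 lower in Stra8 (0.19). The effect of origin was higher in Stra8 than in 129SV for 9 and lower for 1 (median 0.91). Pdgfa, a ligand of Pdgfra, fell by 0.21 and 0.41, and Pdgfrb, its sister receptor, fell by 2.24 and 1.10. Vegfa, the ligand of Kdr, fell by 0.41 from ES and rose by 0.53 from adult cells. Placental growth factor, Pgf, fell by 3.52 from ES cells, Vegfc by 2.44 and 0.80, and the co-receptor Nrp2 by 1.58 from adult cells. Pdgfb (0.88) rose in ES cells and Pdgfd (1.24) in adult cells.

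Kit, the stem cell factor receptor, is the next protein-coding gene to both Pdgfra and Kdr on chromosome 5 in RefSeq, lying between them. It rose by 2.91 ± 0.06 from ES (adjusted p = 7.64e-16) and 3.16 ± 0.06 from adult cells (4.74e-16), and its ligand Kitl rose by 0.91 and 2.24. The response of Kit was larger in adult cells by 0.25 (0.0289), next to 2.01 for Pdgfra and 2.03 for Kdr. Between undifferentiated groups the neighbours differed: adult against ES 129SV cells gave 0.22 for Kit, where Pdgfra gave -1.67 and Kdr -0.75.

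Among endothelial and blood genes, 5 of 20 rose and 8 fell from ES cells, and 7 rose and 11 fell from adult cells (medians -0.08 and -0.26). The median in ES cells was -0.19 without replicate 3 of differentiated ES cells and -0.21 with arrays centred. Cdh5, the cadherin of endothelium (1.90 and 3.41), the angiopoietin receptor Tek (2.56 and 2.55), Flt1, the other VEGF-A receptor (0.40 and 1.73), and Sox7 (1.44 and 3.44) rose. Sox7 is also on the endoderm list. Cd34 (-1.72 and -1.62) and Pecam1 (-1.24 and -1.07) fell, as did Flt4 in ES cells (-1.67) and the red cell factor Klf1 in adult cells (-0.56). Before differentiation, adult against ES cells gave -1.09 in 129SV and 0.66 in Stra8 for Flt1, -1.20 and 0.29 for Vegfa, and -0.22 and -0.24 for Pdgfa.

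The genes with the profile most like each varying gene were sought over the 18 arrays, by the root mean square (RMS) difference of log2 values centred per gene. Nearest to Pdgfra were the membrane protein Pmp22 (0.242), the coagulation factor receptor F3 (0.279) and the fucosyltransferase Fut8 (0.298), where Pdgfra itself deviated from its mean by 1.22. Nearest to Kdr (0.836) were Tax1bp3 (0.180), Igfbp6 (0.190) and A730049H05Rik (0.207). Those of Foxf1 (0.455) were Fermt2, a partner of integrins (0.143), Vegfa (0.158) and Pvr (0.163), and those of Tbx6 (0.424) were Stk25 (0.113), Fyco1 (0.113) and Arhgap1 (0.114).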

How the data were processed

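The authors deposited 1 table of log2 signals, which the submitters' processing notes attribute to RMA, run in Affymetrix's Expression Console (version not given there). Joint normalisation of the 18 arrays is not stated in the sources used here. The values were used without rescaling. Probe sets with 1 gene symbol in the platform annotation (21789 of 35556) were kept, and the brightest over 18 arrays stood for a gene, which left 19938. All arrays entered 1 linear model of the 6 groups in limma 3.58.1 (lmFit, eBayes; R 4.3.3), with p-values adjusted by Benjamini-Hochberg over all genes within a comparison and called under 0.05. SE and intervals use the spread pooled over groups. The 8 genes, the lists and the motifs were chosen with earlier results of these data known. Named list genes are up to 3 of the largest called changes in each direction, plus T, Eomes, Foxa2, Gata4, Gata6, Hand1, Pdgfa, Vegfa, Kit and Flt1; Prrx1 and Thy1 as fibroblast examples, and Pou5f1, were named after their values were seen. Replicate numbers recur across groups. Deviations of same-numbered arrays correlated with r from 0.144 to 0.442 for the 3 pairs of differentiated groups. In no other combination of groups did every pair exceed 0.1, but single pairs reached up to 0.259 (adult Stra8 with differentiated ES cells, replicate 3). The 3 arrays per group limit the precision. Alternatives were centring, quantile normalisation, array weights, a trended and robust variance, all probe sets, a filter on low values, only the compared arrays, the replicate number as a block, and leaving out each array. The fit was also run on simulated data with independent noise and few changed genes. Here many genes changed and some same-numbered arrays deviated together, so that run does not show how the fit performs on these data.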

Additional observations from a re-analysis of the deposited data

Results flagged for a closer look

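Each result here is a gene whose response differed between groups by a test of the difference itself. The effect of origin (adult minus ES) differed between backgrounds, as Stra8 minus 129SV, by 2.49 for Pdgfra, 1.01 for Kdr, 1.73 for Foxf1 and -0.33 for Tbx6. The response to differentiation differed between origins, as adult minus ES, by 2.01 for Pdgfra, 2.03 for Kdr, 1.23 for Foxf1, -0.51 for Tbx6 and -0.53 for Nkx2-5 (adjusted p = 0.00295). These calls held in every one of the 20 alternatives run for each. For Nkx2-5 the response was 0.28 in ES and -0.25 in adult cells, and both single calls were lost when certain arrays were left out.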

How the results depend on the processing

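Over the 8 genes and all comparisons and alternatives, 1009 values kept direction and call, 33 lost the call, 17 gained one and 35 turned direction. The count of genes called stayed within 1.5 times the main count in all of them, the lowest and highest being 4 and 6 for adult against ES 129SV and 6 and 8 for differentiation of adult cells. Every call of Pdgfra and Foxf1 was kept, as were those of Kdr and Tbx6 except in the comparisons named in the report. In the alternative with all probe sets, Foxf1 was the mean of its 2 probe sets. Its second probe set alone did not pass on differentiation of adult cells (0.20, adjusted p = 0.0930) or between adult backgrounds (0.23, 0.0637). Direction turned only for changes that were not called. With arrays centred, quantile normalised or weighted, the differentiation change in ES cells became -0.11, -0.13 and -0.032 for Mesp1 and -0.081, -0.086 and -0.14 for Mixl1, and that of Mixl1 between ES backgrounds -0.039, -0.044 and -0.014. Gsc between differentiated cells became -0.0027 centred and -0.028 weighted. Weighting gave -0.017 for Mesp1 between adult and ES Stra8 cells and 0.027 for Tbx6 between adult backgrounds. Without single arrays, differentiation of ES cells gave -0.040 to 0.048 for Mesp1 and -0.16 to 0.15 for Mixl1. Adult against ES Stra8 cells gave -0.021 to 0.16 for Mesp1 and -0.030 to 0.088 for Gsc, and differentiated cells -0.052 to 0.065 for Gsc. Between ES backgrounds the ranges were -0.12 to 0.011 for Mesp1 and -0.043 to 0.083 for Mixl1. Between adult backgrounds they were -0.10 to 0.085 for Kdr, -0.018 to 0.14 for Mixl1 and -0.066 to 0.037 for Tbx6, and the difference of origin effects of Mixl1 was -0.037 to 0.12. The cause of these turns was not tested.

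With the replicate number as a block in the fit of all arrays, no call of the 8 genes changed (6, 3, 4, 4, 7, 4 and 4 genes called in the 7 pairs of groups). Centring lowered the median change of all genes on differentiation of ES cells from 0.05 to -0.08 and of adult cells from -0.08 to -0.18. In ES cells the calls over all genes were then 4045 higher and 6847 lower, against 5553 and 5452. Alternatives for the lists were chosen after seeing the data. The fit without low genes lacks Mesp1 and Mixl1. No detection calls were used, and 3 arrays a group limit all results.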

Other observations

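Between differentiated adult-derived and ES-derived cells, 6 of 18 heart genes were higher and 5 lower (median -0.05), and 7 of 20 endothelial and blood genes were higher and 1 lower (median -0.02). Over all genes 19.4% were higher and 12.8% lower. Most genes of the latter list, 12 of 20, were not called. Tnnt2, cardiac troponin T, was lower in adult-derived than in ES-derived cells by 2.31 on the log2 scale (-2.31), with means of 7.07 ± 0.05 and 9.38 ± 0.02 (SD, n = 3 arrays). Myl3, a ventricular light chain (-0.58), and Myh7, the slow myosin heavy chain (-0.34), were also lower, while Ryr2 (0.34) and Myocd, a coactivator of muscle genes (0.54), were higher. Cdh5 (1.19), Pecam1 (1.13) and Sox7 (1.53), the last also on the endoderm list, were higher in adult-derived cells, beside Kdr at 1.27. These genes were picked after their values were seen.

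Pgf was lower in adult than in ES 129SV cells by 3.79 (-3.79) and changed by 0.01 in Stra8. Tbx20, a T-box gene of the heart, was higher by 0.55 in adult 129SV and lower by 1.01 (-1.01) in adult Stra8 cells. Both were chosen after their values were seen.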
